A study of Mus musculus with 24 samples.

Results

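Pulmonary fibroblasts of wild-type (WT) mice treated with recombinant mouse transforming growth factor β1 (rmTGF-β1) were compared with WT fibroblasts given the vehicle, phosphate-buffered saline (PBS). The comparison holds 3 libraries for each treatment, 6 of the 24 libraries of the series, chosen by their labels for genotype and treatment and by no measured value. The cells came from the lungs of C57BL/6 mice 4 to 8 weeks old, pooled from 3 to 4 lungs for each group, and were used at passages 3 to 6. They were kept overnight in reduced-serum medium, treated with PBS or 2 ng/mL rmTGF-β1, and lysed at 24 h for total RNA sequencing. The other groups of the series are WT cells given 1 μg/mL recombinant mouse cold-inducible RNA-binding protein (rmCIRP) with or without rmTGF-β1, and cells labelled TLR4-/- given the same 4 treatments, each also with 3 libraries. No source used here says that the 3 libraries of a group came from separate animals or separate isolations, so the tests measure the spread between libraries, which may be technical.

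TGF-β1 is secreted in a latent form bound to matrix proteins and, once released, binds receptor kinases that phosphorylate the transcription factors SMAD2 and SMAD3. In lung fibroblasts this pathway is known for turning on collagen, elastin, matrix cross-linking enzymes and the contractile proteins of myofibroblasts, the cells that lay down scar in pulmonary fibrosis. In many immune cells the same ligand is known as a restraint on inflammatory gene expression. The question here is which genes of either kind moved in WT fibroblasts given rmTGF-β1 alone.

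The 6 libraries held between 31838121 and 39664606 reads counted on genes. Normalized counts below were obtained by dividing the counts by the library's DESeq2 size factor and are listed in the order of libraries 1, 2 and 3. Log2 fold changes (rmTGF-β1 over PBS), their standard errors (SE) and adjusted p values are those of the quasi-likelihood test in edgeR, with p adjusted by the Benjamini-Hochberg method over 16258 genes, and a gene is called where the adjusted p is under 0.1. The cells carried the fibroblast markers, whose 10 genes summed to between 807075 and 866295 normalized counts with PBS. Macrophage RNA was also present: 18 macrophage markers summed to between 96186 and 104671 with PBS and between 87386 and 99899 with rmTGF-β1, of which most was lysozyme (Lyz2). T and B lymphocyte markers were at or near 0, with Cd3e and Cd3g at 0 in all 6 libraries, and the 6 neutrophil markers, of which Ly6g and S100a9 were at 0 and S100a8 made up most, summed to between 138.6 and 166.5 with PBS and between 91 and 136.9 with rmTGF-β1. Endothelial markers summed to between 717 and 1045.3 with PBS and between 635.9 and 882.6 with rmTGF-β1, and mesothelial markers to between 466.8 and 517.2 and between 376.2 and 488. The 9 epithelial markers were low, 6 of them with at most 3 counts in each of the 6 libraries. Their sum, nearly all Cdh1, Krt8 and Krt18, did not overlap between treatments, at between 70.8 and 116.5 with PBS and between 46.5 and 62 with rmTGF-β1. Krt8 and Krt18 were called lower at -1.33 and -0.89, calls that were lost without PBS library 1 and, for Krt18, also without rmTGF-β1 library 3. The part of epithelial RNA in the results below was not tested. In these bulk libraries fewer cells of a type and less RNA per cell cannot be told apart.

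Treatment with rmTGF-β1 moved many genes by small amounts. Of the 16258 genes tested, 938 (5.77%) were called higher and 1081 (6.65%) were called lower, and the median size of a called log2 fold change was 0.26. Of the genes called higher, 52 rose by 1 log2 unit or more, and of those called lower, 56 fell by as much. Libraries of the 2 treatments did not overlap for 4833 genes (29.7%), among them 1917 of the 2019 genes called. The first principal component of the 6 libraries carried 35% of the variance and placed the PBS libraries at -14.26, -19.93 and -17.97 and the rmTGF-β1 libraries at 14.04, 25.03 and 13.09. The number of calls rested in part on 2 libraries: without rmTGF-β1 library 2 there were 1029 calls, and without PBS library 3 there were 1253. In each of the 6 fits that left out a library, 759 genes were called in the direction given here, 391 higher and 368 lower.

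**Figure D1:**
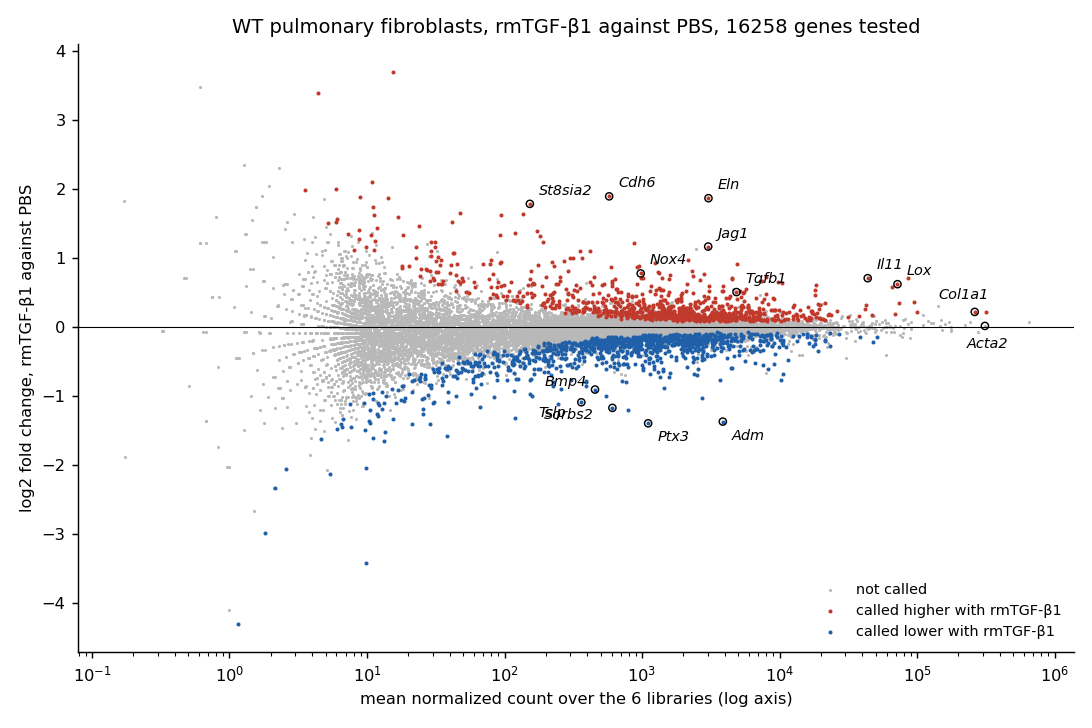
Log2 fold change of rmTGF-β1 over PBS (vertical axis) against the mean normalized count over the 6 WT libraries (horizontal log axis) for each of the 16258 genes tested, with 938 genes called higher in red and 1081 called lower in blue. Most called genes lie within 1 log2 unit of 0, Eln and Cdh6 lie near 1.9, and Acta2, at the right end of the axis, lies at 0.02.

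Counting genes whose mean was 50 normalized counts or more and whose treatments did not overlap, the largest rise was in Cdh6, which encodes cadherin-6, a cell adhesion molecule. Its normalized counts were 225, 241 and 266 with PBS and 851, 975 and 902 with rmTGF-β1 (log2 fold change 1.89, SE 0.17, adjusted p = 9.78e-07). Eln, the gene of tropoelastin, the core protein of elastic fibres, came next with 1089, 1326 and 1502 with PBS and 4383, 5133 and 4811 with rmTGF-β1 (log2 fold change 1.87, SE 0.24, adjusted p = 2.58e-05). For both genes the lowest treated library lay far above the highest PBS library, and the fold change of Eln was between 1.77 and 1.98 in each fit without a library. St8sia2 makes polysialic acid chains on surface glycoproteins, and its counts were 73.1, 76.9 and 55.2 with PBS and 237, 241 and 234 with rmTGF-β1 (log2 fold change 1.79, SE 0.18, adjusted p = 2.28e-06). Kcnh1, a voltage-gated potassium channel, had 52.9, 80.9 and 64.5 with PBS and 202, 221 and 196 with rmTGF-β1 (log2 fold change 1.64, SE 0.26, adjusted p = 0.000294). Jag1, a Notch ligand, had 2015, 1774 and 1795 with PBS and 3954, 4499 and 4128 with rmTGF-β1 (log2 fold change 1.17, SE 0.14, adjusted p = 1.23e-05), and its libraries differed little within a treatment.

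Several of the 15 largest rises encode secreted or surface proteins. The growth factor gene Fgf18 had 115, 124 and 103 with PBS and 293, 261 and 256 with rmTGF-β1 (log2 fold change 1.23, SE 0.20, adjusted p = 0.000272). Tfpi2, an inhibitor of serine proteases in the matrix, had 572, 489 and 514 with PBS and 1241, 1262 and 1187 with rmTGF-β1 (log2 fold change 1.22, SE 0.16, adjusted p = 2.86e-05). Htra3, a secreted serine protease, had 242, 211 and 216 with PBS and 444, 496 and 499 with rmTGF-β1 (log2 fold change 1.10, SE 0.25, adjusted p = 0.00745). The treated libraries of these 3 genes were all above the PBS libraries, by more than the spread within either treatment. Cxcr4, the receptor of the chemokine CXCL12, rose by 1.00 (SE 0.21, adjusted p = 0.0047), from 192, 227 and 211 to 399, 432 and 433. The other rises in this set were in Shisa3 (1.62), Sema4f (1.39), Hr (1.36), Gjb2 (1.33), Rgs4 (1.10) and Bmp2 (1.32), in log2 units. The call of Bmp2, a bone morphogenetic protein, was lost in 5 of the 6 fits that left out a library, all but that without PBS library 2, with fold changes from 1.21 to 1.52. The other 14 calls were kept in every such fit.

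The largest fall was in Ptx3, which encodes pentraxin 3, a soluble pattern recognition molecule of innate immunity. Its normalized counts were 1238, 1858 and 1715 with PBS and 687, 555 and 595 with rmTGF-β1 (log2 fold change -1.39, SE 0.17, adjusted p = 1.96e-05). Adm, the gene of the vasodilator peptide adrenomedullin, had 5238, 5512 and 5963 with PBS and 2274, 1929.8 and 2285 with rmTGF-β1 (log2 fold change -1.37, SE 0.13, adjusted p = 1.06e-06). Both genes were lower in every treated library than in any PBS library. Sorbs2, an adaptor protein of the actin cytoskeleton, had 947, 747 and 835 with PBS and 359, 363 and 403 with rmTGF-β1 (log2 fold change -1.17, SE 0.13, adjusted p = 7.03e-06). Bmp4, a bone morphogenetic protein, had 523, 603 and 653 with PBS and 337, 300.0 and 315 with rmTGF-β1 (log2 fold change -0.90, SE 0.10, adjusted p = 3.96e-06), with a narrow spread among the treated libraries. Tslp, a cytokine that acts on dendritic cells and T helper cells, had 382, 613 and 482 with PBS and 290.5, 160.0 and 244 with rmTGF-β1 (log2 fold change -1.09, SE 0.23, adjusted p = 0.00488). Its PBS library 2 was the highest and its rmTGF-β1 library 2 the lowest of the 6, and the fold change ranged from -1.28 to -0.89 in the fits that left out a library, all of them past the threshold.

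Other falls among the 15 largest were in Bc1 (-1.19), Tmem100 (-1.15), Hsd3b1 (-1.11), Dio2 (-1.02), C1qtnf7 (-1.004), Akr1c18 (-0.999), U90926 (-0.97), Col24a1 (-0.97) and Gm43719 (-0.92), in log2 units. Hsd3b1 and Akr1c18 encode steroid dehydrogenases that belong to families of closely similar genes, so reads may be split between copies. Dio2, which converts thyroid hormone to its active form, had 3179, 4594 and 3270.3 with PBS and 2309, 1331 and 1811 with rmTGF-β1 (log2 fold change -1.02, SE 0.33, adjusted p = 0.0557). That call was lost without PBS library 2, without rmTGF-β1 library 2 and without rmTGF-β1 library 3, at -0.82 to -1.03. The call of U90926 was lost without PBS library 2 and without rmTGF-β1 library 2, at -0.88 and -0.85. Bc1, a short non-coding RNA known from neurons, was called at an adjusted p of 0.0919 and was lost in 4 of the 6 fits, those without PBS libraries 1 and 2 and without rmTGF-β1 libraries 2 and 3, with fold changes of -1.65 to -0.82 over all 6.

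**Figure D2:**
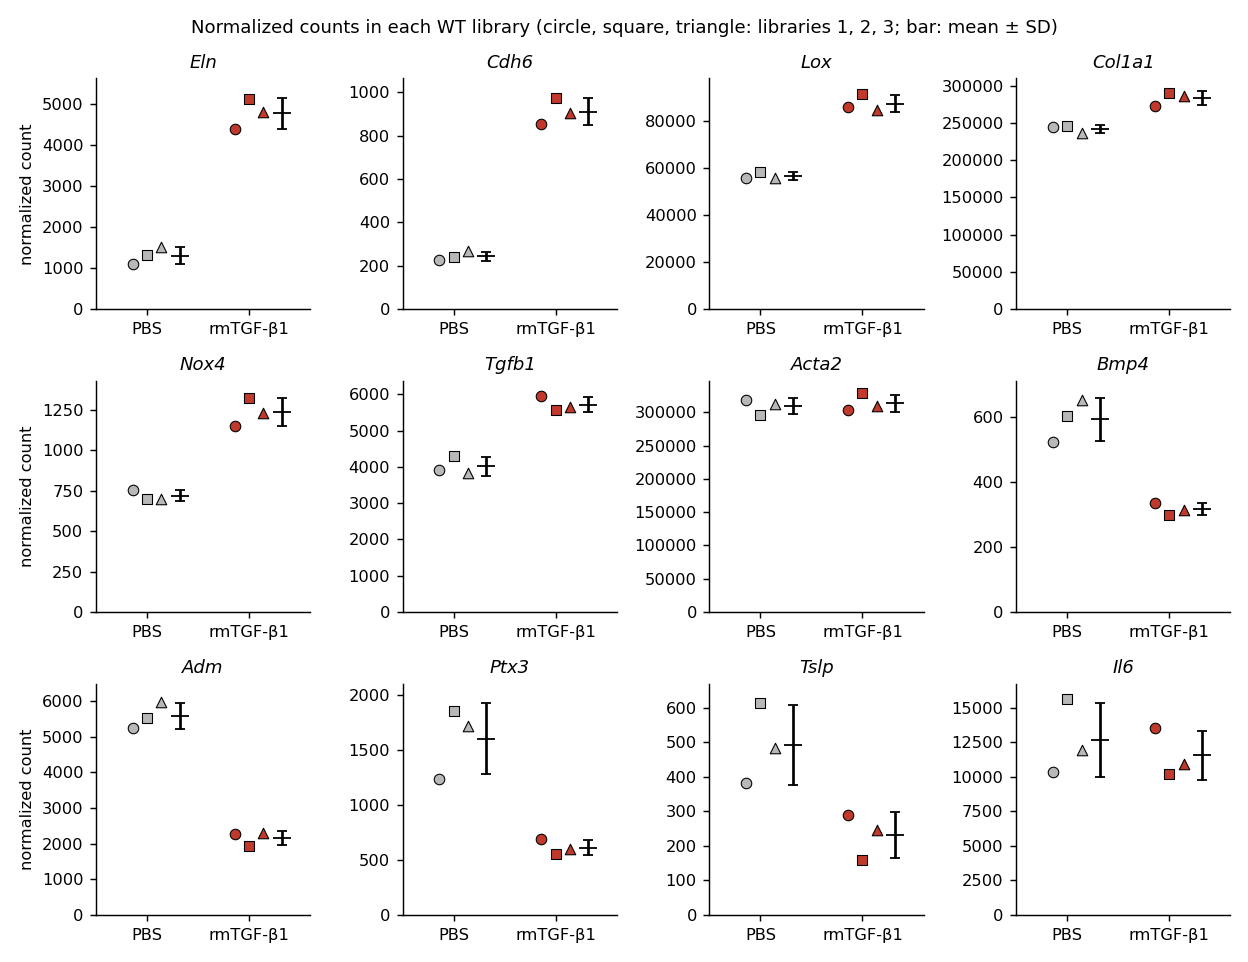
Normalized counts (vertical axes, from 0) of 12 genes in the 3 PBS libraries (grey) and the 3 rmTGF-β1 libraries (red), with circle, square and triangle for libraries 1, 2 and 3 and bars for the mean ± SD of each treatment. Eln, Cdh6, Lox, Col1a1, Nox4 and Tgfb1 were higher and Bmp4, Adm, Ptx3 and Tslp lower in every treated library, whereas the treatments overlapped for Acta2 and Il6.

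Within the pathway itself, the ligand gene, Ltbp2 of the latent TGF-β binding protein family and several inhibitors were called higher. Tgfb1, which encodes the same ligand as was added, had 3899, 4310.0 and 3817 with PBS and 5942, 5553 and 5653 with rmTGF-β1 (log2 fold change 0.51, SE 0.08, adjusted p = 2e-04). Neither of the other 2 ligand genes was called, with Tgfb2 at 0.31 (adjusted p = 0.244). Of 15 ligands, receptors and latent binding proteins tested, 5 were called higher and 2 lower, with a median of 0.13 against -0.02 over all genes, and the number called higher was 2 or 3 in each fit that left out a library. The latent binders Ltbp1 (0.13 (adjusted p = 0.0994)) and Ltbp4 (0.19 (adjusted p = 0.0904)) lost their calls in all 6 of those fits. Ltbp2, a matrix protein placed in that family by name, had 60788, 67496 and 65059 with PBS and 82243, 84601 and 80612 with rmTGF-β1 (log2 fold change 0.35, SE 0.08, adjusted p = 0.00748). Among the receptors, Tgfbr1, the signalling kinase, had 3641, 4250.1 and 4058 with PBS and 5189.6, 4684 and 4880.1 with rmTGF-β1 (log2 fold change 0.30, SE 0.09, adjusted p = 0.0481), but this call was lost in 4 of the 6 fits without a library (PBS 1, PBS 3, rmTGF-β1 1 and rmTGF-β1 3, at 0.26 to 0.31). Tgfbr3, the co-receptor betaglycan, fell in all 3 treated libraries, with 1582, 1837 and 1763 with PBS and 1233, 1017 and 1087 with rmTGF-β1 (log2 fold change -0.64, SE 0.12, adjusted p = 0.00121). The ALK1 receptor gene Acvrl1 also fell, by a smaller amount, with 3040.3, 3037 and 3088 with PBS and 2693, 2789.7 and 2648 with rmTGF-β1 (log2 fold change -0.18, SE 0.03, adjusted p = 0.000454). These 2 falls, and the rises of Tgfb1 and Ltbp2, were called in each fit that left out a library.

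Of 16 SMAD genes and their inhibitors, 5 were called higher and 1 lower, with a median of 0.00. Pmepa1, a membrane protein that sequesters receptor-activated SMADs, had 15464, 15437 and 14343 with PBS and 20407, 21118 and 21262 with rmTGF-β1 (log2 fold change 0.47, SE 0.04, adjusted p = 1.06e-06). Its relative Ldlrad4 had 791, 839 and 837 with PBS and 1101, 1099 and 1004 with rmTGF-β1 (log2 fold change 0.37, SE 0.06, adjusted p = 0.000138), although 52.1% of its exon bases are overlapped by a gene on the opposite strand, Fam210a, and the strand option of the counting is not given in the sources used here. Skil, a SMAD co-repressor, had 4669.7, 4946 and 4838 with PBS and 5517, 5514 and 5478 with rmTGF-β1 (log2 fold change 0.19, SE 0.04, adjusted p = 0.00909). The inhibitory SMAD gene Smad7 had 5214, 5458 and 5219.8 with PBS and 5777, 6281 and 5899 with rmTGF-β1 (log2 fold change 0.17, SE 0.05, adjusted p = 0.026), a call that was lost without rmTGF-β1 library 2 (0.13) and without PBS library 3 (0.16). Smad3, one of the SMADs that the receptor phosphorylates, was lower, with 3589, 4238 and 3462 with PBS and 3077, 2539.7 and 2978 with rmTGF-β1 (log2 fold change -0.40, SE 0.12, adjusted p = 0.0482), and lost its call without PBS library 2 (-0.29) and without rmTGF-β1 library 2 (-0.32). The ID genes encode inhibitors of differentiation, which bind and block other transcription factors. All 4 had fold changes below 0, and Id2 and Id4 were called. Id2 had 4245, 4233 and 4081 with PBS and 3561, 3526 and 3655 with rmTGF-β1 (log2 fold change -0.23, SE 0.05, adjusted p = 0.0066). Id4 had 1192, 1128 and 1214 with PBS and 944, 948 and 876 with rmTGF-β1 (log2 fold change -0.36, SE 0.12, adjusted p = 0.0689) and lost its call without any of the 6 libraries.

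Of 14 genes known as direct targets of TGF-β signalling, 9 were called higher and none lower, 5 of them in each fit without a library, with a median of 0.23. The list was assembled from general knowledge with earlier results of these libraries known. Pdgfb, a platelet-derived growth factor, had the largest change among them, with 159.8, 195 and 199.8 with PBS and 307, 404 and 367 with rmTGF-β1 (log2 fold change 0.96, SE 0.13, adjusted p = 5.36e-05). Nox4, an oxidase that makes hydrogen peroxide, had 757, 699 and 700.5 with PBS and 1153, 1328 and 1229 with rmTGF-β1 (log2 fold change 0.78, SE 0.14, adjusted p = 0.00118). Bhlhe40, a transcriptional repressor, had 1046, 1002 and 1031 with PBS and 1446, 1484 and 1533 with rmTGF-β1 (log2 fold change 0.53, SE 0.11, adjusted p = 0.00292). All treated libraries of these 3 genes lay above all PBS libraries. Ccn2, the matrix-associated protein also called CTGF, had 84694, 80435 and 84608 with PBS and 107002, 109033 and 105954 with rmTGF-β1 (log2 fold change 0.36, SE 0.09, adjusted p = 0.00917). Il11, a cytokine of the IL-6 family, had 31084, 37891 and 30479.6 with PBS and 56853, 53644 and 52538 with rmTGF-β1 (log2 fold change 0.71, SE 0.24, adjusted p = 0.0675). The treatments did not overlap for Il11, yet its adjusted p rose above 0.1 in 5 of the 6 fits without a library (all but that without PBS library 2), with fold changes of 0.65 to 0.83, and it was not called at an adjusted p under 0.05. Klf10, Junb and Snai1 were also called, between 0.18 and 0.21, and each was lost in at least 3 of those fits, rmTGF-β1 library 2 among them.

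Promoters are shown for the called genes of the direct target, contractile and fibrillar collagen lists whose sequence holds a motif searched for, because these lists describe the fibrotic programme. Of 15 genes called higher in these lists, 9 had an entry in the RefSeq promoter table (GRCm38.p6, 250 bases before to 50 bases after the transcription start) and 4 held a motif. Il11 had 2 promoters there, and only that with a match is shown. Among the 4 genes, Col5a1 lost its call in 6 of the 6 fits without a library, Il11 in 5 and Smtn in 2. The motifs were the SMAD-binding CAGA element (CAGACA), the TEAD motif (GGAATG), the AP-1 site (TGACTCA) and the CArG box, each on either strand. Capitals mark the match, which is the reverse complement of the listed letters in all 4 promoters: the CAGA element 142 bases before the start of Nox4 and 36 bases before that of Col5a1, the AP-1 site 98 bases before that of Il11, and the TEAD motif 222 bases before that of Smtn. Nox4 is at chr7:87246399-87246698 on the plus strand, Il11 at chr7:4778092-4778391 on the minus strand, Col5a1 at chr2:27886175-27886474 on the plus strand and Smtn at chr11:3539243-3539542 on the minus strand.
Nox4: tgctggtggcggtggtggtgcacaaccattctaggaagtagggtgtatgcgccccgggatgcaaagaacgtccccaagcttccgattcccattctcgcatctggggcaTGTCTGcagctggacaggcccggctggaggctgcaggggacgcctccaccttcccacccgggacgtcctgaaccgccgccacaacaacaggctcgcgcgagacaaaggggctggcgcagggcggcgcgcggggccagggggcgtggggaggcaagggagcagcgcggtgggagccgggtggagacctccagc
Il11: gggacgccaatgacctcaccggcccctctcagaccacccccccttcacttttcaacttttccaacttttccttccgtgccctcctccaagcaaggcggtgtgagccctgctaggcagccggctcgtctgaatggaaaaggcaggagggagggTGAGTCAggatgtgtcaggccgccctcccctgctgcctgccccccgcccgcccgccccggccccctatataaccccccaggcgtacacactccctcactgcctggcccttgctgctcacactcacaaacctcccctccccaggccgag
Col5a1: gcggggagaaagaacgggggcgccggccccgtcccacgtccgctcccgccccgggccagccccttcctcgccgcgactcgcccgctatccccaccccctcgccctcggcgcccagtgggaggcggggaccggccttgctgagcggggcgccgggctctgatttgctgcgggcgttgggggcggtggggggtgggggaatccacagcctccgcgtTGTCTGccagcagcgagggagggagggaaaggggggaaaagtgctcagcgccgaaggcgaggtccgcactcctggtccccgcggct
Smtn: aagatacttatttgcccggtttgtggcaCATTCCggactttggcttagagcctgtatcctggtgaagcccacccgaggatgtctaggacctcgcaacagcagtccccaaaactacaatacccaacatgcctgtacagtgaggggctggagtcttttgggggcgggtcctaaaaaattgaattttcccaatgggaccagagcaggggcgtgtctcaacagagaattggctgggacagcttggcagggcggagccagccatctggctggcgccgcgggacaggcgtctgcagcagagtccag

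A match to such short letters is a description and no evidence of binding. Of 32851 promoters in the table, 21% held the CAGA element, 14.7% the TEAD motif, 5.2% the AP-1 site and 1.63% the CArG box. Among the promoters of genes called higher, 16.9% held the CAGA element, against 17% for genes called lower and 16.8% for genes tested and not called. The AP-1 site was in 4.67%, 3.88% and 4.18% of these promoters and the TEAD motif in 11.6%, 13.3% and 12.6%.

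The collagen genes moved unevenly. Of 11 fibrillar collagen genes, 5 were called higher and 1 lower, with a median of 0.14. Col11a1, a minor fibrillar collagen, had 8522, 7853 and 8060.2 with PBS and 12066, 13679 and 12339.7 with rmTGF-β1 (log2 fold change 0.64, SE 0.09, adjusted p = 7.24e-05). Col5a3 had 5753, 6328 and 5069 with PBS and 8892, 9388 and 8972 with rmTGF-β1 (log2 fold change 0.66, SE 0.16, adjusted p = 0.0114). Both were called in each fit without a library. Col1a1, the main chain of type I collagen, had 243961, 246260.2 and 236246 with PBS and 272685, 290549.5 and 285473 with rmTGF-β1 (log2 fold change 0.22, SE 0.08, adjusted p = 0.0929). Its treated libraries all lay above the PBS libraries, but the call at 0.0929 was lost in each of the 6 fits without a library (0.20 to 0.24). Col5a1 had a log2 fold change of 0.19 (adjusted p = 0.0992) and was likewise lost in each of them. Col1a2, the other chain of type I collagen, was not called at 0.11 (adjusted p = 0.424), nor was Col3a1, which had 67421, 92372 and 82579 with PBS and 85482, 69318 and 74529 with rmTGF-β1, at -0.08 (adjusted p = 0.757). Col24a1, a rare fibrillar collagen, fell, with 56.8, 97.8 and 72.9 with PBS and 49.4, 29.0 and 38.0 with rmTGF-β1 (log2 fold change -0.97, SE 0.22, adjusted p = 0.0078).

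Of 21 non-fibrillar collagen genes tested, 5 were called higher and 1 lower, with a median of -0.01. Col7a1, the anchoring fibril collagen, had 3846, 3456 and 2966 with PBS and 5106, 5378 and 6130.1 with rmTGF-β1 (log2 fold change 0.69, SE 0.12, adjusted p = 0.000925). Col16a1, which associates with fibrils, had 4711, 5169 and 4829 with PBS and 6063, 6105 and 5862 with rmTGF-β1 (log2 fold change 0.29, SE 0.05, adjusted p = 0.000293). These 2 calls were kept without any single library, and the calls of Col6a3, Col8a2, Col15a1 and the lower Col6a1 were not.

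Calls among genes of collagen modification and cross-linking went in a single direction. Of 28 tested, 12 were called higher and none lower, with a median of 0.09, and 7 of the 12 were called in each fit without a library. Lox encodes lysyl oxidase, the enzyme that cross-links collagen and elastin, and it led with 55555, 58493 and 55785 with PBS and 85846, 91598 and 84749 with rmTGF-β1 (log2 fold change 0.62, SE 0.07, adjusted p = 9.16e-06). Loxl2, of the same family, had 23903, 25183 and 23564 with PBS and 28696, 28786 and 27824 with rmTGF-β1 (log2 fold change 0.23, SE 0.05, adjusted p = 0.00724). Tll1, a protease that trims procollagen, had 5047, 4668 and 4417 with PBS and 5688, 6107 and 5754 with rmTGF-β1 (log2 fold change 0.31, SE 0.07, adjusted p = 0.00572). In each of these genes every treated library exceeded every PBS library. Bmp1, the related procollagen C-proteinase, had a log2 fold change of 0.21 (adjusted p = 0.000731), and the lysyl hydroxylases Plod2 and Plod3 had 0.21 (adjusted p = 0.0105) and 0.18 (adjusted p = 0.00608). The remaining calls in the list were P3h1, P3h4, P4ha2, Crtap, Fkbp10 and Pcolce2, the last at 0.35 and the others from 0.13 to 0.19.

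Among 13 elastic fibre genes, 3 were called higher and 1 lower, and Eln stood apart from the rest of its list. Emilin1, a glycoprotein of elastic fibres, had 8769, 9164 and 9068 with PBS and 10502, 11103 and 10397 with rmTGF-β1 (log2 fold change 0.24, SE 0.05, adjusted p = 0.00582). Fbn1, the microfibril protein fibrillin-1, had 42506, 44926 and 44308 with PBS and 50034, 51273 and 48198 with rmTGF-β1 (log2 fold change 0.18, SE 0.05, adjusted p = 0.0314), and that call was lost without rmTGF-β1 library 2 (0.16). The next value after Eln in the list was thus 0.24, against 1.87 for Eln. By reads per length, Eln rose from a mean of 17.6 TPM (reads per exon length scaled to a common total) with PBS to between 58.3 and 67.4 TPM with rmTGF-β1, while Lox stood at 1296 TPM with PBS.

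Matricellular proteins sit in the matrix and act on cells. Of 19 such genes, 5 were called higher and 2 lower, with a median of 0.07. Ccn4, also known as WISP1, had 13880.1, 15506 and 14258 with PBS and 22665, 22972 and 21508 with rmTGF-β1 (log2 fold change 0.62, SE 0.07, adjusted p = 1.19e-05). Postn, the gene of periostin, had 7751, 7644 and 7428 with PBS and 10358, 10898 and 9285 with rmTGF-β1 (log2 fold change 0.42, SE 0.07, adjusted p = 0.000553). Cthrc1, a secreted protein expressed by collagen-producing fibroblasts, had 1192, 1102 and 1188 with PBS and 1726, 1683 and 1648 with rmTGF-β1 (log2 fold change 0.53, SE 0.13, adjusted p = 0.00909), and Smoc2 had 936, 1130.2 and 1024 with PBS and 1513, 1414 and 1406 with rmTGF-β1 (log2 fold change 0.48, SE 0.08, adjusted p = 0.000652). These 4 rises were called in each fit without a library. The fall of Spp1, the gene of osteopontin, to a log2 fold change of -0.21 (adjusted p = 0.0677), was lost in 4 of those fits, both libraries numbered 2 among them. Of 20 proteoglycan and hyaluronan genes, only Has2, a hyaluronan synthase, was called, with 14755, 15940.1 and 13808 with PBS and 22465, 21677 and 20694 with rmTGF-β1 (log2 fold change 0.54, SE 0.07, adjusted p = 1.45e-05). Fn1, the gene of fibronectin, was not called, with 226585, 247912 and 233241 with PBS and 252600.4, 253286 and 238355 with rmTGF-β1 (log2 fold change 0.07, SE 0.06, adjusted p = 0.575).

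Among 15 integrin genes, which encode the receptors for matrix proteins, 5 were called higher and 1 lower, with a median of 0.10. Itga11, a collagen-binding subunit, had 2335, 2646 and 2576 with PBS and 3568, 3808 and 3468 with rmTGF-β1 (log2 fold change 0.52, SE 0.12, adjusted p = 0.00781). Itga5, a subunit of the fibronectin receptor, had 94049, 90997 and 90018 with PBS and 104844, 110333 and 107241 with rmTGF-β1 (log2 fold change 0.22, SE 0.04, adjusted p = 0.000441). Itgav, a subunit of integrins that release latent TGF-β, had 14063, 13346 and 14071 with PBS and 15217, 16122 and 15747 with rmTGF-β1 (log2 fold change 0.18, SE 0.05, adjusted p = 0.0228), a call lost without rmTGF-β1 library 2 (0.16). On the side of matrix breakdown, Timp3, an inhibitor of metalloproteinases, had 53272, 55262 and 49185 with PBS and 78059, 83146 and 75594 with rmTGF-β1 (log2 fold change 0.58, SE 0.07, adjusted p = 1.75e-05). Plau, the gene of urokinase, fell, with 10821, 10794 and 10794 with PBS and 7931, 7084 and 7390.3 with rmTGF-β1 (log2 fold change -0.54, SE 0.12, adjusted p = 0.0077). The treated libraries all lay above the PBS libraries for Timp3 and below them for Plau. Of 17 matrix metalloproteinase genes, Mmp14 was called higher at 0.26 and Mmp9 and Mmp11 lower at -0.33 and -0.32. The calls of Mmp14 and Mmp9 were lost without rmTGF-β1 library 2 (0.22 and -0.21), and that of Mmp9 also without PBS libraries 2 and 3 (-0.23 and -0.32).

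The contractile genes of myofibroblasts were mostly not called. Of 30 tested, 1 was called, and the median was -0.02. Acta2, the gene of α-smooth muscle actin and the usual marker of myofibroblasts, had 318757, 295742 and 312147 with PBS and 303591, 328287 and 308796 with rmTGF-β1 (log2 fold change 0.02, SE 0.10, adjusted p = 0.952). The treatments overlapped, and Acta2 was the most abundant mRNA per length in PBS cells, at 15390 TPM. Cnn1, the gene of calponin, had 49884, 46361 and 48745 with PBS and 50393, 53108 and 51160.0 with rmTGF-β1 (log2 fold change 0.09, SE 0.13, adjusted p = 0.759), and Myh11, a smooth muscle myosin, had 32984, 30366 and 32757 with PBS and 29915, 31618 and 29093 with rmTGF-β1 (log2 fold change -0.09, SE 0.11, adjusted p = 0.697). The counts of Tagln, the gene of transgelin, were 801, 692 and 883 with PBS and 715, 876 and 900.1 with rmTGF-β1 (log2 fold change 0.07, SE 0.11, adjusted p = 0.798), but 67.9% of its exon bases are overlapped by genes on the opposite strand, Pcsk7 among them, and its level may not be counted in full. The single call was Smtn, the gene of smoothelin, with 4758, 4799 and 4875 with PBS and 5207, 5408 and 5331 with rmTGF-β1 (log2 fold change 0.14, SE 0.04, adjusted p = 0.0335), and it was lost without rmTGF-β1 library 2 and without rmTGF-β1 library 3 (0.13 each).

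Growth factor genes went both ways. Of 19 genes of BMP and activin signalling, 5 were called higher and 3 lower. Inhba, the activin A subunit, had 64557, 71275 and 59865 with PBS and 108423, 104872 and 106687 with rmTGF-β1 (log2 fold change 0.71, SE 0.16, adjusted p = 0.00837). Fstl3, which binds activin, had 974, 1119 and 1078 with PBS and 1638, 1903 and 1654 with rmTGF-β1 (log2 fold change 0.71, SE 0.08, adjusted p = 7.54e-06), with 47.3% of its exon bases overlapped on the opposite strand by Prss57. Both rose in every treated library, beside the rise of Bmp2 and the fall of Bmp4 given above. Of 17 Wnt ligands and inhibitors, 5 were called higher and 4 lower, and the 5 that rose were all ligands. Wnt5a had 2583, 2273 and 2449 with PBS and 3432, 3832 and 3821 with rmTGF-β1 (log2 fold change 0.60, SE 0.08, adjusted p = 4.15e-05). Wnt2 had 238, 275 and 215 with PBS and 476, 555 and 429 with rmTGF-β1 (log2 fold change 1.00, SE 0.20, adjusted p = 0.0023). Wnt9a, Wnt5b and Wnt10b had log2 fold changes of 0.72, 0.67 and 0.84, and all 5 ligands were called in each fit without a library. The 4 genes that fell were listed as Wnt inhibitors. Frzb had 2276, 2655 and 2489 with PBS and 2179, 1751 and 1974 with rmTGF-β1 (log2 fold change -0.33, SE 0.07, adjusted p = 0.0061). Notum and Sfrp2 had log2 fold changes of -1.08 and -1.01 at low counts, and Dkk3 had -0.19. For Notum, 38.1% of the exon bases are overlapped by genes on the opposite strand, Myadml2os and Notumos. The falls of Sfrp2 and Dkk3 were lost without PBS library 2 (-0.63 and -0.15) and without rmTGF-β1 library 2 (-0.73 and -0.18), and that of Dkk3 also without PBS library 3 and without rmTGF-β1 library 3 (-0.18 each).

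Among 23 growth factors and IGF binding proteins, 9 were called higher and 7 lower, with a median of 0.01. Pdgfc, a ligand of the PDGF receptor α, had 892, 838 and 817 with PBS and 1611, 1719 and 1534 with rmTGF-β1 (log2 fold change 0.93, SE 0.09, adjusted p = 1.45e-06). That receptor's own gene, Pdgfra, fell, with 7060.4, 8773 and 7773 with PBS and 6156, 5036 and 5276 with rmTGF-β1 (log2 fold change -0.52, SE 0.11, adjusted p = 0.005). Fgf2 had 16914, 18558 and 17347 with PBS and 22925, 21709.8 and 21251 with rmTGF-β1 (log2 fold change 0.31, SE 0.08, adjusted p = 0.0149), and Fgf1 fell, with 83.7, 81.9 and 73.9 with PBS and 43.4, 45.0 and 42.3 with rmTGF-β1 (log2 fold change -0.88, SE 0.19, adjusted p = 0.00501). Nrep, which promotes the translation of TGF-β, had 4930.5, 4774 and 4524 with PBS and 6336, 6162 and 6112 with rmTGF-β1 (log2 fold change 0.38, SE 0.05, adjusted p = 5.75e-05). Fgf10, a fibroblast growth factor that acts on epithelium, was lower and had 4741, 5910.4 and 5361 with PBS and 4474, 3589 and 3907 with rmTGF-β1 (log2 fold change -0.42, SE 0.11, adjusted p = 0.0216), and Hgf, the hepatocyte growth factor gene, had 2369, 3179 and 2673 with PBS and 2264, 1672 and 1856 with rmTGF-β1 (log2 fold change -0.51, SE 0.13, adjusted p = 0.0164). In both, the highest PBS library and the lowest treated library were those numbered 2, and both calls were lost without PBS library 2 (-0.33 and -0.38) and without rmTGF-β1 library 2 (-0.36 and -0.42). Igfbp5, an IGF binding protein, had 12166, 13553 and 13317 with PBS and 9223, 6880.3 and 8264 with rmTGF-β1 (log2 fold change -0.68, SE 0.18, adjusted p = 0.0196) and lost its call without rmTGF-β1 library 2 (-0.58).

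Among 25 transcription factor genes of lung mesenchyme, 3 were called higher and 2 lower. Runx1 had 3071, 3336 and 3140.2 with PBS and 4571, 4674 and 4554 with rmTGF-β1 (log2 fold change 0.53, SE 0.06, adjusted p = 7.45e-06). Its relative Runx2 had 1262, 1289.9 and 1221 with PBS and 1609.8, 1648 and 1689 with rmTGF-β1 (log2 fold change 0.39, SE 0.07, adjusted p = 0.000839). Prrx1, a factor of mesenchymal cells, fell, with 12513, 14504 and 13278 with PBS and 10834, 8723 and 9410.3 with rmTGF-β1 (log2 fold change -0.48, SE 0.08, adjusted p = 0.000596). These 3 calls were kept in each fit without a library. Cspg4, the NG2 proteoglycan listed as a pericyte marker, had 1541, 1507 and 1276 with PBS and 2563, 3219 and 2744 with rmTGF-β1 (log2 fold change 0.97, SE 0.10, adjusted p = 2.73e-06), while the summed counts of its list of 7 smooth muscle and pericyte markers were 56724 to 57593 with PBS and 56803 to 59921 with rmTGF-β1.

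The number of calls in the lists on metabolism and oxidation depended on the libraries fitted. Of 20 genes of serine, glycine and proline synthesis, which supply amino acids for collagen, 4 were called higher and 1 lower, against 9 and 3 in the fit on the 6 libraries alone, 11 and 3 in that on the 12 WT libraries, and 8 and 2 with no filter on low counts. Without PBS library 3 there was 1 called higher. Aldh18a1, an enzyme early in proline synthesis, had 3756, 3733 and 3726 with PBS and 4297, 4392 and 4219 with rmTGF-β1 (log2 fold change 0.20, SE 0.03, adjusted p = 0.000256). Of 17 glycolysis genes, 2 were called higher. Of 21 NRF2 and antioxidant genes, 1 was called higher and 2 lower, beside 5.77% and 6.65% of all genes. Of the 21, 17 had fold changes below 0, with a median of -0.11 against -0.02 over all genes. The number lower was 7 in the fit on the 6 libraries, 9 in that on the 12 WT libraries, 8 with no filter and 6 under a replicate block (a term for the library number). Nqo1, an NRF2 target, had 1589.9, 1304 and 1360.4 with PBS and 1045, 1151 and 1171 with rmTGF-β1 (log2 fold change -0.34, SE 0.09, adjusted p = 0.0225), and its call was lost without PBS library 1 (-0.23). Of 22 proliferation genes, none was called lower (5 were without PBS library 2) and only Mcm6, a subunit of the replicative helicase, was called higher, with 2662, 2266 and 2266 with PBS and 3206, 3388 and 3246 with rmTGF-β1 (log2 fold change 0.45, SE 0.07, adjusted p = 0.000138). None of 7 genes in a list of cell cycle inhibitors and Myc was called. Of 11 lipofibroblast genes, 1 was called higher and 2 lower.

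**Figure D3:**
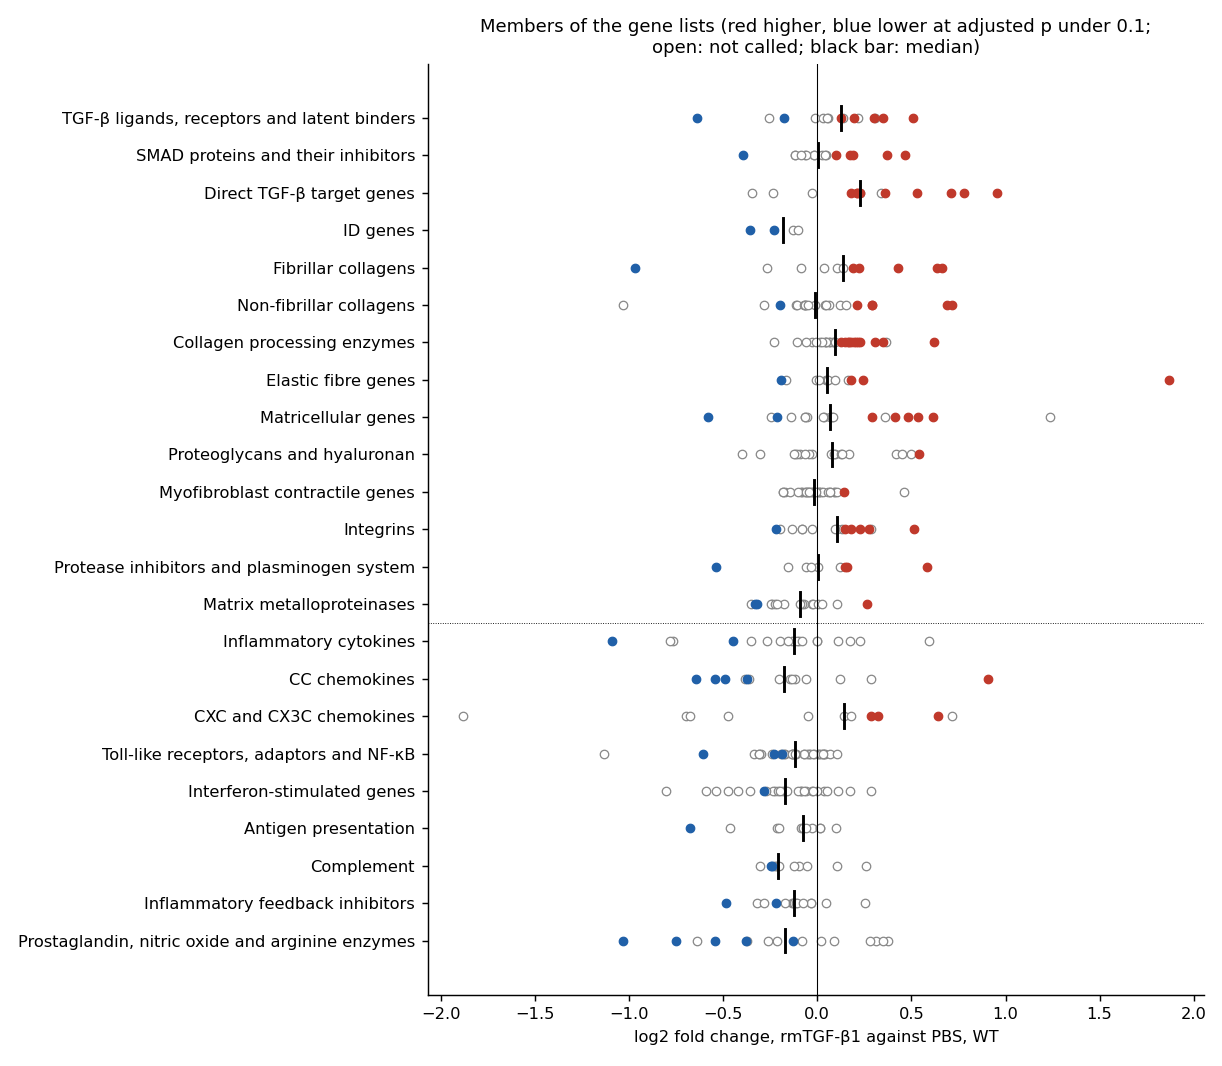
Log2 fold changes of rmTGF-β1 over PBS (horizontal axis) for the tested members of 23 gene lists, fibrotic lists above the dotted line and inflammatory lists below it, with called genes in red (higher) or blue (lower), genes not called as open circles, and the median of each list as a black bar. Called genes are mostly red above the line (9 of 14 direct targets, 12 of 28 collagen processing genes) and mostly blue below it, and the contractile genes sit around 0.

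Together, the 6 lists of matrix genes held 112 genes tested, of which 31 (27.7%) were called higher and 5 (4.46%) lower. The 9 lists of inflammatory genes held 162, of which 4 (2.47%) were called higher and 20 (12.3%) lower, beside 5.77% and 6.65% of all genes. These 9 lists include that of 15 genes that dampen inflammatory signalling, which gave 2 of the 20 falls. The pool thus mixes genes of opposite sense, and its falls are not all falls of genes that promote inflammation. The other lists were not sorted into genes that promote and genes that restrain inflammation. The shares are counts over lists that were chosen with earlier results of these data known, and no test of either set was made. The matrix lists leave out the contractile genes, of which 1 of 30 was called. The matrix rises and the inflammatory falls differed in how far they rested on single libraries. Of 938 rises over all genes, 391 were called in each of the 6 fits without a library. Of the 31 matrix rises, 18 were, and the number of matrix genes called higher was at least 21 in those fits. Of 1081 falls over all genes, 368 were called in each of the 6 fits, and of the 20 inflammatory falls 2 were. The number called lower was 3 without PBS library 2, 3 without rmTGF-β1 library 2, 5 without PBS library 3 and 12 without rmTGF-β1 library 3, and 21 without either library numbered 1.

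The 2 inflammatory falls that were kept were Tslp, given above, and Ptgir, the prostacyclin receptor gene, which had 124, 174 and 171 with PBS and 109.9, 77.0 and 92.1 with rmTGF-β1 (log2 fold change -0.75, SE 0.19, adjusted p = 0.0152). Of 18 inflammatory cytokine genes tested, Tslp and Tnfsf11 were called lower and none higher, with a median of -0.12. Of 14 CC chemokine genes, which attract monocytes, T cells and eosinophils, 4 were called lower (Ccl3, Ccl4, Ccl9 and Ccl11, from -0.64 to -0.37) and Ccl17 was called higher at 0.91, a call lost in 4 of the 6 fits without a library (PBS 2, PBS 3, rmTGF-β1 2 and rmTGF-β1 3). Ccl9 had 1484, 1678 and 1802 with PBS and 1349, 1129 and 1362 with rmTGF-β1 (log2 fold change -0.37, SE 0.12, adjusted p = 0.046), with the lowest value in rmTGF-β1 library 2. All 4 falls were lost without PBS library 2, without PBS library 3 and without rmTGF-β1 library 2, where that of Ccl9 was -0.35, -0.31 and -0.29, and those of Ccl4 and Ccl11 also without rmTGF-β1 library 3 (-0.52 and -0.70). Of 11 CXC and CX3C chemokine genes, 3 were called higher and none lower. Cx3cl1, the gene of fractalkine, which binds monocytes and T cells, had 436, 496 and 488 with PBS and 707, 749 and 766 with rmTGF-β1 (log2 fold change 0.64, SE 0.14, adjusted p = 0.00555), and this rise was kept without any single library. Those of Cxcl14 (0.32) and Cxcl16 (0.29) were each lost in 4 of the 6 fits, without PBS libraries 1 and 3, without rmTGF-β1 library 1, and without rmTGF-β1 library 2 for Cxcl14 or 3 for Cxcl16.

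Of 35 genes of Toll-like receptors, their adaptors and NF-κB, 3 were called lower and none higher, with a median of -0.12. Tlr4 itself, the receptor for bacterial lipopolysaccharide, had 718, 802 and 758 with PBS and 671, 649.9 and 629.7 with rmTGF-β1 (log2 fold change -0.23, SE 0.06, adjusted p = 0.0157), a call that was lost without PBS library 2 (-0.18). Tlr1 and Tnip1 were called at -0.61 and -0.19, and both were lost without PBS library 2 (-0.47 and -0.12) and without rmTGF-β1 library 2 (-0.49 and -0.16), and that of Tnip1 also without PBS library 3 (-0.18) and without rmTGF-β1 library 3 (-0.20). Of 29 interferon-stimulated genes 1 was called lower, Irf1, at -0.28 (adjusted p = 0.0653), and of 12 antigen presentation genes 1, H2-Eb1, at -0.67 (adjusted p = 0.0716). Of 12 complement genes 2 were called lower, the receptors C3ar1 and C5ar1, at -0.25 and -0.24. None of these calls was kept in all 6 fits without a library. Over all genes tested, 6.65% were called lower, and the counts of the Toll-like receptor, interferon-stimulated and antigen presentation lists lie near that share. Of 15 genes that dampen inflammatory signalling 2 were also called lower and none higher. Of 16 prostaglandin, nitric oxide and arginine genes, 5 were called lower and none higher, among them Ptges, the prostaglandin E synthase, with 8099, 10129 and 8517 with PBS and 6788, 5449 and 6182 with rmTGF-β1 (log2 fold change -0.54, SE 0.20, adjusted p = 0.0952). The Ptges call was lost in each of the 6 fits without a library, at -0.62 to -0.43.

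Macrophage markers, like some other lists, moved in the same libraries. The macrophage median log2 ratio to the PBS mean was -0.08, 0.06 and 0.05 in the PBS libraries. It was -0.09, -0.22 and -0.04 in the rmTGF-β1 libraries. For complement genes the values were -0.16, 0.22 and 0.03 with PBS and 0.00, -0.33 and -0.22 with rmTGF-β1, and for inflammatory cytokines -0.09, 0.09 and -0.01 with PBS and -0.07, -0.30 and -0.10 with rmTGF-β1. In all 3 lists rmTGF-β1 library 2 was the lowest, and the treatments overlapped in the macrophage and cytokine lists and in complement. Endothelial markers had the same lowest library, at -0.26, 0.28 and 0.05 with PBS and 0.05, -0.29 and -0.13 with rmTGF-β1. Of the 18 macrophage markers, 17 had fold changes below 0. Mrc1 and Cd53 were called lower at -0.27 and -0.26, beside 6.65% of all genes. Both calls were lost without PBS library 3 and without rmTGF-β1 library 2, and that of Mrc1 also without PBS library 2. The part of macrophage RNA in the inflammatory values was not tested. The direct target, fibrillar collagen and collagen processing lists showed no overlap between treatments in these medians.

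**Figure D4:**
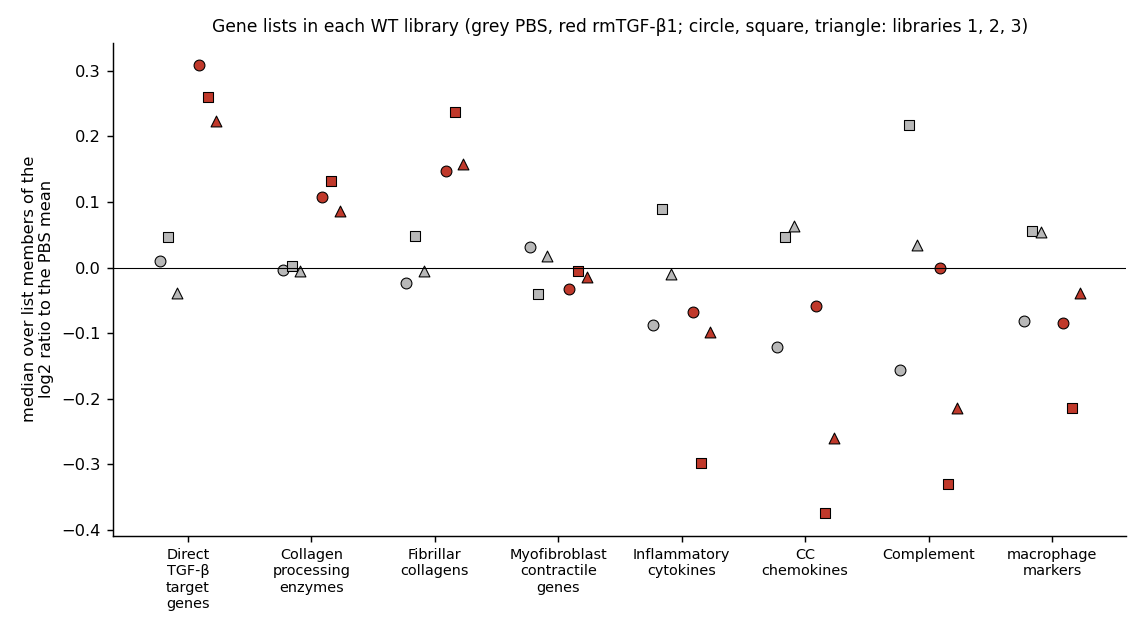
Median over the members of 8 gene lists of the log2 ratio to the PBS mean (vertical axis), for each PBS library (grey) and rmTGF-β1 library (red), with circle, square and triangle for libraries 1, 2 and 3. The direct target medians are 0.31, 0.26 and 0.22 with rmTGF-β1, apart from the PBS libraries, while the CC chemokine medians are -0.06, -0.38 and -0.26 and reach into the range of the PBS libraries.

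The genes on which the study centres for inflammation were mostly not called with rmTGF-β1 alone. Tnf had 234, 268 and 291 with PBS and 217, 180.0 and 222 with rmTGF-β1, so that all treated libraries lay below the PBS libraries, but its log2 fold change of -0.35 (SE 0.15) had an adjusted p of 0.155. The counts of Il6 were 10379.8, 15631 and 11956 with PBS and 13557, 10214 and 10905 with rmTGF-β1 (log2 fold change -0.14, SE 0.23, adjusted p = 0.801), and those of Cxcl2, a neutrophil-attracting chemokine, were 127, 202 and 198 with PBS and 132, 119 and 127 with rmTGF-β1 (log2 fold change -0.48, SE 0.25, adjusted p = 0.267). Il1a and Il1b were near the low end of detection, with at most 50.4 and 21.9 normalized counts in any of the 6 libraries, and had adjusted p values of 0.916 and 0.999. Myd88 and Ly96, which act with TLR4 in signalling, were not called, at -0.05 (adjusted p = 0.626) and -0.13 (adjusted p = 0.372). A p above the threshold does not show that these genes stayed level: the SE of Il6 and Cxcl2 were 0.23 and 0.25 log2 units.

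The same treatment was also given in 2 other settings whose libraries are separate from the 6 described. In the libraries labelled TLR4-/-, rmTGF-β1 against PBS called 3884 genes (23.9%). In WT cells with rmCIRP in both arms, rmCIRP+rmTGF-β1 against rmCIRP called 3329 (20.5%). Of the 2019 genes called in WT cells, 1855 (91.9%) had the same sign in the labelled TLR4-/- libraries and 1945 (96.3%) in the presence of rmCIRP. Those called in the same direction numbered 1310 and 1434, which is 64.9% and 71% of the WT calls and 33.7% and 43.1% of the calls in the other settings. There were 1072 genes called in the same direction in all 3 settings, 569 higher and 503 lower. All 15 of the largest rises were called higher in both other settings. Of the 15 largest falls, 13 were called lower in the labelled TLR4-/- libraries and all 15 in the presence of rmCIRP.

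Eln rose in each setting from a different level. With rmCIRP the means were 308 ± 75.6 without and 1671 ± 75.0 with rmTGF-β1 (SD, n = 3), which is 2.44 (SE 0.28, adjusted p = 2.16e-06) in log2 units, and in the labelled TLR4-/- libraries they were 479 ± 42.8 and 1523 ± 511, which is 1.68 (SE 0.27, adjusted p = 0.00011). Ptx3 fell by -2.43 in the labelled TLR4-/- libraries and by -1.996 with rmCIRP, against -1.39 with rmTGF-β1 alone, all in log2 units. Jag1 rose by 1.97 and 1.72 in these settings, against 1.17. The differences from WT cells without rmCIRP were not called for either gene, at adjusted p of 0.155 and 0.793 for Ptx3 and 0.133 and 0.708 for Jag1 in the interaction terms of edgeR. Acta2 was not called in either setting, at -0.05 (SE 0.10, adjusted p = 0.808) and -0.08 (SE 0.10, adjusted p = 0.664). Col1a1 was called in the presence of rmCIRP at 0.25 (SE 0.08, adjusted p = 0.0344) and not in the labelled TLR4-/- libraries at 0.10 (SE 0.08, adjusted p = 0.458). Of the 112 matrix genes, 28 were called higher and 18 lower in the labelled TLR4-/- libraries, and 32 higher and 8 lower with rmCIRP. Over all genes, 12.1% were called higher and 11.7% lower in the labelled TLR4-/- libraries, and 10% and 10.5% with rmCIRP.

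Of the same 162 inflammatory genes, 38 were called lower and 9 higher in the labelled TLR4-/- libraries, and 45 lower and 3 higher in the presence of rmCIRP. Over all genes, 1909 and 1700 were called lower in these settings, against 1081 with rmTGF-β1 alone. Among Toll-like receptor, adaptor and NF-κB genes, 16 of 35 were called lower with rmCIRP and none higher. The culture labelled TLR4-/- held more macrophage RNA, with 18 markers summing to between 369985 and 423795 normalized counts with PBS, and its normalized count of Tlr4 was above that of WT cells, at 903 ± 20.2 against 759 ± 41.9 with PBS (SD, n = 3). For this reason its libraries are named by their label, and genotype and culture cannot be told apart.

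**Figure D5:**
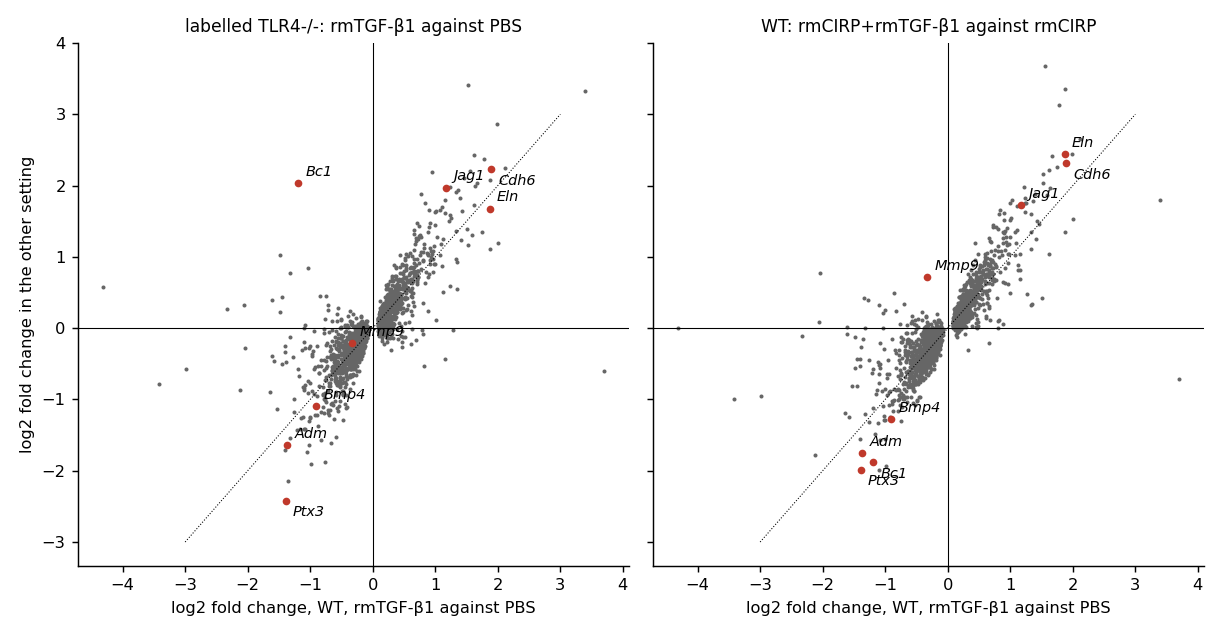
Log2 fold changes of the 2019 genes called in WT cells (horizontal axes) against those of the same genes for rmTGF-β1 over PBS in the labelled TLR4-/- libraries (left) and for rmCIRP+rmTGF-β1 over rmCIRP in WT cells (right), with a dotted line of equal values. Of these genes 1855 share the sign on the left and 1945 on the right, with Bc1 (left) and Mmp9 (right) among the exceptions.

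Whether the response itself differed was tested with interaction terms, which share the 6 WT libraries. The response in the labelled TLR4-/- libraries differed from that in WT cells for 14 genes (0.0861%), of which 6 had a higher and 8 a lower fold change than in WT, and 1686 genes had an unadjusted p under 0.05. This count was 0 in 6 of the 12 fits that left out a library (PBS 1, PBS 2, rmTGF-β1 2 and rmTGF-β1 3 in WT, PBS 2 and rmTGF-β1 1 in the labelled TLR4-/- libraries) and 119 without labelled TLR4-/- rmTGF-β1 library 2. It was 139 with DESeq2. The response in the presence of rmCIRP differed from that without it for 8 genes (0.0492%), 6 higher and 2 lower, with 917 at an unadjusted p under 0.05, 34 genes with DESeq2 and between 2 and 7 in the fits that left out a library. Mmp9, the gene of gelatinase B, is expressed by macrophages and other cells. It had 1295, 1692 and 1537 with PBS and 1355, 986 and 1259 with rmTGF-β1 without rmCIRP, -0.33 in log2 units, and means of 3213 ± 91.1 with rmCIRP and 5277 ± 290.3 with rmCIRP+rmTGF-β1 (SD, n = 3), or 0.71 (SE 0.09, adjusted p = 1.18e-05). The difference of 1.04 (SE 0.14, adjusted p = 0.0023) was called in each fit that left out a library.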

How the data were processed

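Total RNA of each culture was made into stranded libraries and sequenced. Per the labels and the study's methods, the authors used STAR2 for alignment to mouse GENCODE and ht-seq for counting, and they deposited the raw counts per gene symbol of every library, not normalized. The submitters' processing notes name FastQC, HTSeq and the build NCBIM37, so no gene positions are taken from the files. The strand option of the counting is not given in the sources used here. The 5 tally lines of each file, among them reads on no gene (3.48% to 3.81% of reads in the 6 libraries) and ambiguous reads (4.85% to 5.00%), were left out.

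Samples were grouped by their labels, and none of the 24 was left out. In edgeR 4.0.16 (R 4.3.3), filterByExpr kept 16258 of 34285 genes with a count, libraries were scaled by TMM, and a mean for each of the 8 groups was fitted to all 24 libraries, which share the estimate of spread. The 5 contrasts went through glmQLFTest, with p adjusted by the Benjamini-Hochberg method, at the threshold of 0.1 that the study used. An SE was obtained from the estimate and the F statistic (the size of the first over the root of the second). The tests were run on simulated data first. Within groups, chi-square per degree of freedom between replicates was 3.41 to 7.66 in the 6 libraries, so none was a copy. Among the labelled TLR4-/- libraries, rmTGF-β1 library 3 stood apart, at 13.07 and 17.17 against libraries 1 and 2. Library 3 of rmCIRP+rmTGF-β1 with that label did so further, at 50.56 and 34.56. Both stayed in the fit and add to the shared estimate of spread. Counting error enters the edgeR fit together with the spread between libraries and is not treated separately. It weighs most in genes with few counts. Union exon lengths of GENCODE M21, which matched 53292 of 55291 names, gave TPM and exon overlaps only.

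Besides the genes the study names and list members, the genes named are the 15 largest rises and 15 largest falls among called genes whose mean was 50 normalized counts or more and whose treatments did not overlap, and for each interaction the 3 highest and 3 lowest called. A few genes that this rule or the lists name are counted but not reported here. Members, gene lists and tests were chosen with earlier results of these data known. Alternatives were DESeq2 1.42.0, RLE scaling, other filters and thresholds, fits on fewer libraries, a replicate block, and leaving out each library.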

Additional observations from a re-analysis of the deposited data

Results flagged for a closer look

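By edgeR's interaction term (adjusted p under 0.1), the rmTGF-β1 response of 14 genes differed between the labelled TLR4-/- and WT libraries. That of 8 genes differed in WT cells between the presence and absence of rmCIRP. For the 14 genes, genotype and culture cannot be told apart. Given here are up to 3 with the highest and up to 3 with the lowest difference in each, among genes with a mean of 50 normalized counts or more. The values below are differences of log2 fold changes, the other setting minus rmTGF-β1 alone in WT. Calls were often lost when a library was left out.

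Between the labelled TLR4-/- and WT libraries, Bc1 had a difference of 3.23 (SE 0.65, adjusted p = 0.088), with -1.19 in WT and 2.03 in the former. Tmem86a, a lysoplasmalogenase, had 0.61 (SE 0.12, adjusted p = 0.0594), from -0.37 to 0.24. Gtf2h2, a subunit of transcription factor IIH, had 0.47 (SE 0.09, adjusted p = 0.0622), from -0.15 to 0.32. Fam174a had -0.43 (SE 0.07, adjusted p = 0.0443), from 0.11 to -0.32, and Kctd12 had -0.40 (SE 0.07, adjusted p = 0.0443), from 0.18 to -0.23. Rras2, a small GTPase, fell in both, by -0.27 and -0.66, a difference of -0.39 (SE 0.07, adjusted p = 0.0443). Each of these 6 calls was lost in 6 to 8 of the 12 fits that left out a library.

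In the presence of rmCIRP, Cadm1, a cell adhesion molecule, had 1.62 (SE 0.26, adjusted p = 0.0141), with means of 53.5 ± 8.82 and 71.3 ± 6.77 normalized counts without rmCIRP and 39.3 ± 9.61 and 161 ± 19.6 with it (SD, n = 3, PBS or rmCIRP first), and lost its call in 2 of 12 fits, without PBS library 1 (1.48) and without rmCIRP library 3 (1.51). Mmp9 had 1.04 (SE 0.14, adjusted p = 0.0023) and Iqgap2, a scaffold protein, 0.83 (SE 0.13, adjusted p = 0.0141), both kept in all 12 fits. Mmp8, the neutrophil collagenase gene, had -0.57 (SE 0.10, adjusted p = 0.0384), and its call was lost in 5 fits. Ripk2, a kinase of innate immune signalling, had -0.42 (SE 0.08, adjusted p = 0.0937), and its call was lost in all 12.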

How the results depend on the processing

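The count of 2019 genes called in WT cells stayed within 1.5 times under DESeq2 (1902), RLE scaling (2024), no filter on low counts (2173), a mean count of at least 10 (2094), an adjusted p under 0.05 (1398) and a fit on the 6 libraries alone (2983). It was 3357, 1849 higher and 1508 lower, when the 12 WT libraries alone were fitted, and between 1029 and 1690 when a library was left out, lowest without rmTGF-β1 library 2. No gene called in WT cells changed direction in any of these fits, and 49.8% to 98.2% of the calls were kept. The 108 called genes that moved by 1 log2 unit or more ranged from 67 to 119 without a library, and the 3884 calls in the labelled TLR4-/- libraries from 2517 to 3783.

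The 14 genes that differed between the labelled TLR4-/- and WT libraries became 139 with DESeq2 and 563 with no filter. They became 23 at a mean count of at least 10 and 6 at an adjusted p under 0.05. Their number ranged from 0 to 119 without a library. The 8 genes of the interaction with rmCIRP became 34 with DESeq2, 198 with no filter, 125 in the fits on the libraries compared, which here are the 12 WT libraries, and 4 at an adjusted p under 0.05, and ranged from 2 to 7 without a library. The cause of these differences was not tested.

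Libraries of different treatments share replicate numbers. Same-numbered WT libraries had correlations of -0.11, -0.08 and 0.00 between their deviations from the group means, and 0 of 6 correlated best with their own number, so the number was not taken to pair samples. Adding that number as a replicate block gave 2109 calls in WT cells. With it, 22 genes differed between the labelled TLR4-/- and WT libraries and 11 in the interaction with rmCIRP.

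Genes near 0 changed sign without being called. In the fits that left out a library, the log2 fold change of Acta2 ranged from -0.019 to 0.057, of Col3a1 from -0.18 to 0.035, of Il6 from -0.27 to 0.057, of Mmp8 from -0.15 to 0.032, of Myd88 from -0.091 to 0.0072, of Tagln from -0.0098 to 0.16 and of Iqgap2 from -0.11 to 0.061, and Iqgap2 was at 0.0027 with no filter. Il1b ranged from -0.18 to 0.24 in these fits and was at 1e-04 under RLE scaling, 0.015 with no filter, 0.0029 at a mean count of at least 10, 0.0102 in the fit on the 6 libraries and 0.012 in that on the 12 WT libraries. The SE of Il1b (0.39), which had few counts, was large beside its fold change.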
